A study of Mus musculus with 20 samples.

Results

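The cytosolic ribosomal protein genes, which encode the proteins of the ribosomes outside the mitochondria, were followed in mouse liver across streptozotocin diabetes and 2 doses of dietary phloridzin. A gene was taken when its symbol began with Rpl or Rps followed by a number, or was Rpsa, Rplp0, Rplp1 or Rplp2, leaving out the Rps6k kinases and symbols ending in -ps and a number. With probe sets that list only 1 gene, and the brightest of these for each gene, this gave 50 of 18193 genes. Of these, 47 were among the 12947 genes kept by a filter on low values and were compared between groups. The 3 that were left out were Rps16, Rpl3l and Rpl39l. The rule used symbols only and no measured value except the brightness of a gene's probe sets over all arrays.

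Livers of male BALB/c mice were profiled on 20 Affymetrix arrays, each with the total RNA of 1 mouse, 5 per group from groups that held 6 mice. STZ mice were injected with streptozotocin, which kills the beta cells of the pancreas and so removes insulin, at 185 mg/kg and, after showing non-fasting glucose between 330 and 590 mg/dL, ate a plain purified diet for 14 days. The 0.1% and 0.5% phloridzin mice were STZ mice whose diet contained that share of phloridzin, a compound of apple trees that blocks the kidney's glucose transporters and lets glucose leave in urine. Untreated mice ate the plain diet and were given no injection, so streptozotocin and the injection itself cannot be told apart. All mice were 6 weeks old on arrival. Tissue was whole liver, so fewer cells of a type and less RNA per cell cannot be told apart in any value below.

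A ribosome has a small subunit, which reads the mRNA, and a large subunit, which joins amino acids and carries the P-stalk, a flexible arm that recruits elongation factors. Their proteins are made in matched amounts, and the mRNAs begin with a pyrimidine tract through which mTORC1 signalling and the RNA-binding protein Larp1 control their translation. In liver, insulin and amino acids act on this pathway, and hepatocytes spend much of their protein synthesis on secreted plasma proteins.

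The values were linear signals scaled by the authors to a trimmed mean of 100 on each array. Array medians ranged from 11.2 to 17.1. Checked against the liver label, the 8 measured hepatocyte genes had mean signals of 4505 to 15910, whereas all 7 measured T and NK cell genes were at or below 17.1. One array, mouse 4 of the 0.1% phloridzin group, stood apart at the bright end, with a highest signal of 37014 against 12257 to 20257 on the other arrays and a signal of 14067 for the spiked control bioD against 3097 to 4794. In mouse 5 of the untreated group the ratio of Gapdh 3′ to 5′ signal, a sign of RNA integrity, was 1.07 against 0.676 to 0.797 elsewhere. Summed markers of B and plasma cells were 145 to 211 in STZ livers and 436 to 574 in untreated livers, and the mean sums of erythroid markers (523 in STZ, 1350 in untreated) and exocrine pancreas markers (581 in STZ, 1617 in untreated) were also lower. In each of these last lists 2 of 3 measured genes had means at or below 17.1, so the sum is mostly that of the remaining gene. The erythroid sum of STZ mouse 1 was 1374, inside the untreated range of 1280 to 1466. The part of these marker differences in the results below was not tested.

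Most ribosomal protein genes gave a strong signal. Of the 50, 36 had a mean signal above 1000, whereas only 8.46% of all genes kept did. Of 77 genes listed as subunit proteins, 43 had a probe set of their own, and 34 of these had mean signals of 2005 to 10741. The other 9 lay under 500, namely Rpl12, Rpl14, Rpl27a, Rpl37, Rpl39, Rps6, Rps16, Rps25 and Rps27, with means of 0.457 (Rps16) to 371 (Rpl37). All 9 were also listed by a brighter probe set shared with other genes, whose brightest signals ran from 2609 to 8136. The own probe sets of these 9 therefore carried far less signal than the shared ones, and signals of different probe sets do not rank mRNA amounts. The plot of signals by gene shows this step between dim and bright probe sets.

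**Figure D1:**
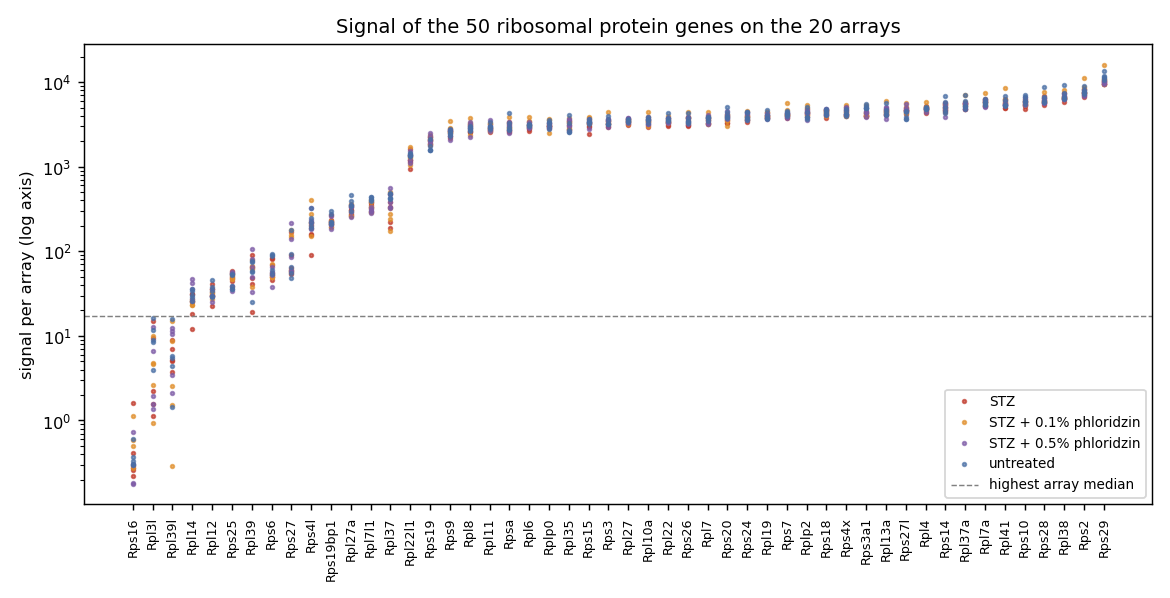
Signal of each of the 50 genes on the 20 arrays, on a log axis, with genes ordered by mean signal and points coloured by group. The dashed line is the highest array median (17.1), and 36 genes have a mean above 1000.

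Streptozotocin left the ribosomal protein mRNAs close to their untreated levels. Of the 47 genes, 1 was called lower and 0 higher in STZ livers, where 13.8% of all 12947 genes were called (limma, Benjamini-Hochberg adjusted p under 0.05), 6.90% as higher and 6.89% as lower. At an unadjusted p under 0.05 there were 9 of 47 genes (19.1%), against 28.4% of all genes. Among the 1095 genes with a mean signal above 1000, 27.8% were called, against 2.78% of the 36 ribosomal protein genes of that brightness. The median log2 difference of the 47 genes was −0.09, against −0.05 for all genes, and 41 of 47 lay below 0. That count was 33 of 47 when arrays were centred on their median and 36 of 47 with quantile normalization. The median 95% interval was ± 0.22 log2 units (1.16-fold), and for 43 of 47 genes the whole interval lay within 1.5-fold of no change. For the 36 bright genes no interval reached beyond 1.44-fold in either direction.

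Rps3a1, a small subunit protein that lies near the mRNA exit site, was the gene that fell. Its signal was 3920, 3954, 3946, 4054 and 4330 in STZ livers, against 5151, 4924, 4986, 4918 and 5574 in untreated livers. Every STZ liver lay below every untreated liver. The means were 4041 ± 169.5 in STZ and 5111 ± 276 in untreated livers (SD, n = 5 each), a log2 difference of −0.34 ± 0.09 (SE) or 1.26-fold lower (limma adjusted p = 0.0177). Without the 0.1% phloridzin array that stood apart, which is in neither group, the limma adjusted p was 0.00911. It was 0.0434 without untreated mouse 5 and 0.0171 with only the groups compared. The gene has 1 probe set of its own, at GRCm38.p6 chr3:86137940-86142668 by the RefSeq gene, and no second probe set to set beside it. Over the 20 small subunit genes, Rps3a1 included, 17 lay below 0 and the median was −0.09.

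Groups of 3 of the 47 genes did not overlap between STZ and untreated livers, which is 6.38%, against 12.9% of all genes. These were Rps3a1, Rpl7l1 and Rps29, all lower in STZ, and the last was named after its values were seen. Rps29, a small zinc-binding protein of the small subunit, had signals of 10265, 9410, 9414, 10371 and 9580 in STZ livers, against 11508, 11042, 11910, 10682 and 13643 in untreated livers. Its log2 difference of −0.26 ± 0.11 did not pass (limma adjusted p = 0.139). It passed without the 0.1% phloridzin array that stood apart (adjusted p = 0.0432). That array is in neither group, so leaving it out altered the shared estimate of the spread and not the difference. With only the groups compared, which also leaves that array out, Rps29 was not called. The other probe sets of Rps29, with mean signals of 7438 and 8173, gave smaller differences of −0.12 and −0.14.

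Among the large subunit genes, 19 of 20 lay below 0 in STZ livers, with a median of −0.08 and none called. Rpl11, which with Rpl5 binds the p53 regulator Mdm2 when ribosome assembly is disturbed, differed by −0.11 ± 0.10 (limma adjusted p = 0.506). Rpl22, an RNA-binding protein of the large subunit, differed by −0.16 ± 0.09 (adjusted p = 0.247). Its probe sets differed in direction, and the less bright ones gave 0.25 (mean signal 1430) and −0.17 (mean signal 267). The widest differences were on dim probe sets, such as Rpl37 at −0.53 (limma adjusted p = 0.143), whose signals ran from 188 to 474 in STZ livers and from 411 to 485 in untreated livers.

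Neither P-stalk gene was called. Rplp0, often used as a loading control in quantitative PCR, had 3035, 3056, 2888, 3088 and 3264 in STZ livers and 3272, 3405, 3547, 2990 and 2798 in untreated livers. These groups overlapped, with a log2 difference of −0.06 ± 0.10 (limma adjusted p = 0.748). Rplp2 differed by 0.06 ± 0.11 (limma adjusted p = 0.767). For the small subunit, Rpsa, also known as the laminin receptor precursor, differed by −0.13 ± 0.13 (limma adjusted p = 0.531). Rps6, whose protein is phosphorylated downstream of mTORC1, differed by −0.18 ± 0.16 (limma adjusted p = 0.472) on a dim probe set with a mean of 63.0. Rps27 differed by 0.01 ± 0.37 (limma adjusted p = 0.992), on a dim probe set with signals of 48.3 to 218. Rplp1, Rps27a, Rpl3 and Rpl5 were not measured by a probe set of their own.

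The 4 paralogs, genes that arose as copies of ribosomal protein genes, differed in direction. Rpl7l1, a copy of Rpl7 whose yeast counterpart acts in large subunit assembly, had signals of 387, 292, 348, 369.7 and 323 in STZ livers, against 439, 400.1, 436, 418 and 388 in untreated livers. Every STZ liver lay below every untreated liver, and the difference of −0.27 ± 0.10 missed the threshold (limma adjusted p = 0.0654). All 3 of its probe sets gave −0.27, and with their mean the adjusted p was 0.0208. Without STZ mouse 1 it was 0.0394. Rps27l, a copy of Rps27 that p53 induces in human cells, had 4186, 4930, 4683, 4722 and 4700 in STZ livers, against 3623, 3870, 4469, 3676 and 4527 in untreated livers. Its groups overlapped through 1 STZ liver, and the difference of 0.21 ± 0.10 was not called (limma adjusted p = 0.162). Its other 2 probe sets gave 0.42 and 0.29, and it passed with the mean of probe sets (adjusted p = 0.0153) and with quantile normalization (adjusted p = 0.0454). Rps4l at −0.54 (adjusted p = 0.113) and Rpl22l1 at −0.20 (adjusted p = 0.343) were not called by limma. The last of the 47 genes, Rps19bp1, encodes a binding partner of Rps19 that meets the symbol rule without being a ribosomal protein, and it differed by −0.07 ± 0.11 (limma adjusted p = 0.687).

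**Figure D2:**
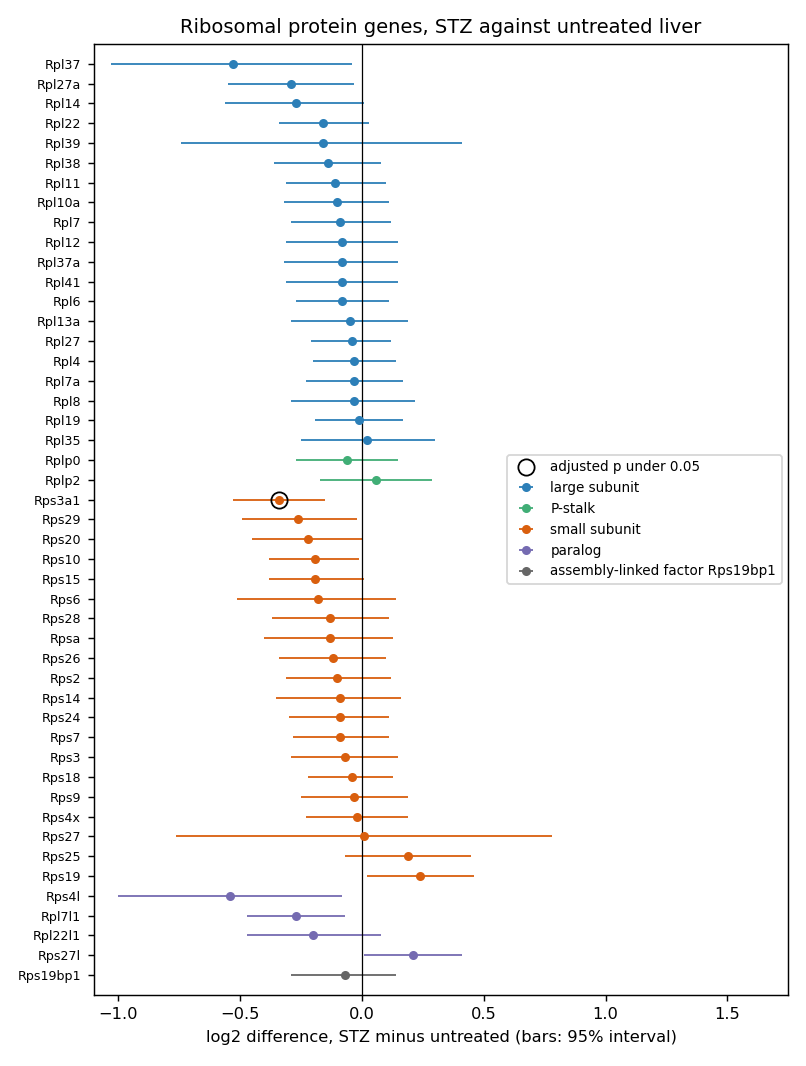
Log2 difference of the 47 genes, STZ minus untreated, with 95% intervals from limma, ordered within each role and coloured by role. Rps3a1, circled, is the one gene called, and 41 of 47 points lie below 0.

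Adding phloridzin to the diet of STZ mice changed no ribosomal protein mRNA by the test, at either dose. In 0.1% phloridzin against STZ livers, 0 of 47 genes were called, as were 0% of all 12947 genes by limma, and at an unadjusted p under 0.05 there were 4 of 47 genes against 5.29% of all genes. The median log2 difference was 0.10, against −0.004 for all genes, and 42 of 47 genes lay above 0. All 36 bright genes lay above 0, between 0.03 and 0.25, while 710 of the 1095 bright genes of any kind did, with a median of 0.05. All 8 measured hepatocyte markers also lay above 0, with a median of 0.30 and 6 of 8 at an unadjusted p under 0.05. Their summed signal was 164505 in the 0.1% phloridzin array that stood apart. It was 80522 to 98946 in the other mice of that group and 63369 to 86340 in STZ livers. The part of these markers in the result was not tested. The pattern of the ribosomal protein genes moved with the scaling, with the choice of probe sets and with 1 array. With quantile normalization the median was −0.01 and 17 of 36 bright genes lay above 0. Without the 0.1% phloridzin array that stood apart, the median was 0.04 and 30 of 36 did. With the brightest plain _at probe set of each gene (23 genes), the median was 0.02 and 7 of 13 bright genes lay above 0. Several of these 13 genes were then read on dim probe sets, such as Rps10 (mean signal 15.4) and Rps24 (25.3).

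The 3 genes with the smallest p at 0.1% phloridzin were Rps4l, Rps15 and Rpl41, each with a limma adjusted p of 0.921. Rps4l had 403, 276, 222, 214 and 150.5 in 0.1% phloridzin livers, against 89.8, 203, 187, 162 and 154 in STZ livers. These groups overlapped, with a log2 difference of 0.59. Rps15, a small subunit protein, had 3275, 3313, 3885, 3777 and 3527 in 0.1% phloridzin livers, against 2998, 2446, 2978, 3315 and 3203 in STZ livers, a difference of 0.25. Rpl41, the shortest of the ribosomal proteins, differed by 0.24, with its highest value in the array that stood apart. For the bright genes no 95% interval reached beyond 1.38-fold.

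In 0.5% phloridzin against STZ livers, again 0 of 47 genes were called by limma and 0% of all genes, with 2 of 47 genes at an unadjusted p under 0.05 against 4.80% of all genes. The median was 0.05, against 0.02 for all genes, and 40 of 47 genes lay above 0. That count was 25 of 47 when arrays were centred on their median. The smallest p values belonged to Rpl14 at 0.39 (limma adjusted p = 0.985), Rps4l at 0.54 and Rpl37 at 0.40 (both adjusted p = 0.996). Rpl14 had 35.7, 41.8, 46.6, 27.5 and 25.9 in 0.5% phloridzin livers, against 25.2, 31.0, 18.2, 11.9 and 31.3 in STZ livers, on a dim probe set whose groups overlapped. No interval of a bright gene reached beyond 1.32-fold.

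Between the doses, 0.5% against 0.1% phloridzin, 0 of 47 genes and 0% of all genes were called by limma, with 1 of 47 genes at an unadjusted p under 0.05 against 6.49% of all genes. The median was −0.04, against 0.02 for all genes, and 15 of 47 genes lay above 0. With quantile normalization the median was 0.03 and 32 of 47 lay above 0, so the direction turned with the scaling. Rpl14 at 0.31 (adjusted p = 0.753), Rpl37 at 0.48 and Rps2 at −0.21 (both adjusted p = 0.762) had the smallest p in limma. Both doses were set against the same STZ mice, so these comparisons share arrays. In none of the 3 did a ribosomal protein gene have groups without overlap, which 0.680% of all genes had at 0.1% and 0.842% at 0.5% phloridzin against STZ, and 0.803% between doses.

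Of the genes named in every comparison, none was called against STZ livers at either dose. Rplp0 differed by 0.03 ± 0.10 at 0.1% and by 0.00155 ± 0.10 at 0.5% phloridzin. Rps6 differed by −0.19 ± 0.16 and −0.22 ± 0.16, Rpl11 by 0.09 ± 0.10 and 0.08 ± 0.10, and Rpsa by 0.12 ± 0.13 and 0.04 ± 0.13, each at 0.1% and then 0.5%. Rps19 differed by 0.03 ± 0.11 at 0.1% and 0.10 ± 0.11 at 0.5%, and Rps27l by 0.05 ± 0.10 at both doses. Rps27, on its dim probe set, differed by 0.38 ± 0.37 at 0.1% and 0.28 ± 0.37 at 0.5%. The limma adjusted p of these genes ran from 0.972 to 0.999.

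**Figure D3:**
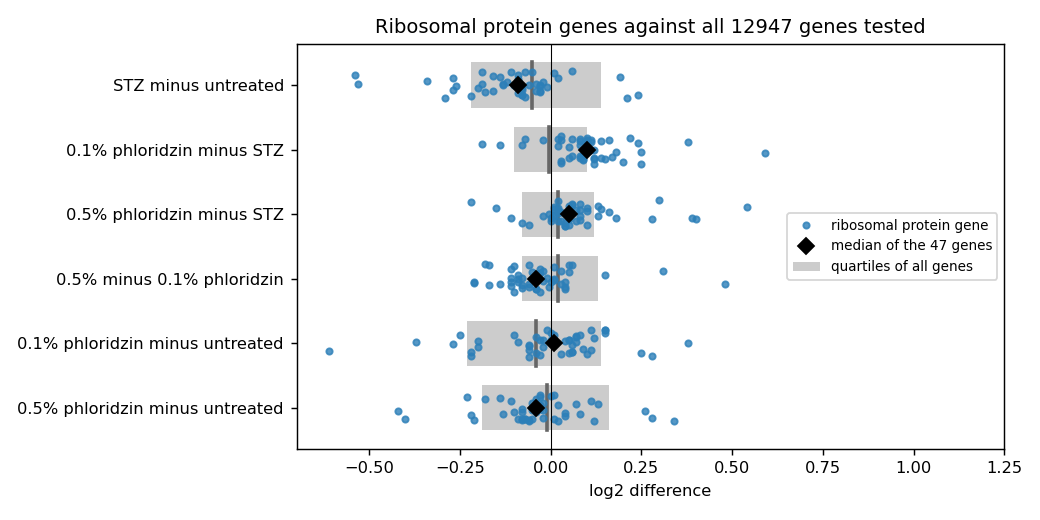
Log2 differences of the 47 ribosomal protein genes (blue points, median as a black diamond) in the 6 comparisons. Grey bars span the lower to the upper quartile of all 12947 genes, with their median as a dark line. The diamonds lie between −0.09 and 0.10.

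Each phloridzin group was also set against untreated livers. These comparisons share the untreated arrays with the STZ comparison. In 0.1% phloridzin against untreated livers, 0 of 47 genes were called by limma, against 16.7% of all genes (7.76% higher and 8.98% lower), and the median was 0.01 (−0.04 for all genes). Its sign turned with quantile normalization, to −0.05. In 0.5% phloridzin against untreated livers, 1 gene was called higher and 1 lower, against 12.7% of all genes called (6.53% higher and 6.18% lower), and the median was −0.04 (−0.01 for all genes). The 7 genes at an unadjusted p under 0.05 at 0.1% phloridzin and the 5 at 0.5% compare with 30.8% and 27.2% of all genes.

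Rpl7l1 was the gene that fell in 0.5% phloridzin livers. Its signals were 302, 314, 298, 338 and 282 in 0.5% phloridzin livers and 399.7, 334, 383, 332 and 294 in 0.1% phloridzin livers, with the untreated values given above. Every 0.5% phloridzin liver lay below every untreated liver. The means were 307 ± 20.7 in 0.5% phloridzin and 416 ± 22.2 in untreated livers (SD, n = 5 each), a log2 difference of −0.42 ± 0.10 or 1.34-fold lower (limma adjusted p = 0.00660). This call held in all 30 alternatives, with adjusted p from 0.00156 to 0.0237. Its other 2 probe sets gave −0.20 and −0.44. At 0.1% phloridzin the difference was −0.25 (adjusted p = 0.0755), and without mouse 1 of that group the adjusted p was 0.0351. The 0.5% and 0.1% phloridzin groups differed from each other by −0.17 ± 0.10 (limma adjusted p = 0.792).

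Rps19, a small subunit protein needed for maturation of that subunit and mutated in human Diamond-Blackfan anaemia, was the gene that rose in 0.5% phloridzin livers. Its signal was 2029, 1925, 2527, 2090 and 2314 in 0.5% phloridzin, 2003, 1847, 2134, 2368 and 2068 in 0.1% phloridzin and 2051, 1822, 1840, 2253 and 2213 in STZ livers, against 1579, 1574, 1757, 1592 and 2116 in untreated livers. All groups overlapped with untreated livers through untreated mouse 5, whose signal was far above the other 4. The log2 difference was 0.34 ± 0.11 for 0.5% phloridzin (limma adjusted p = 0.0411), 0.28 ± 0.11 for 0.1% phloridzin (0.0799) and 0.24 ± 0.11 for STZ (0.138). The 0.5% call was lost in 10 of 29 alternatives, 8 of them leaving out 1 mouse of either group, with adjusted p up to 0.113 (without 0.5% phloridzin mouse 3). Without untreated mouse 5 it was 0.0155 at 0.5% and 0.0274 at 0.1% phloridzin.

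Rps27l was higher than untreated in all 3 diabetic groups by mean and was not called in any. Its signals were 4540, 4547, 5470, 4653 and 4927 in 0.5% phloridzin livers, all above the 5 untreated values, and 4321, 4417, 5012, 5660 and 4649 in 0.1% phloridzin livers, which overlapped with them. The differences were 0.26 at 0.5% (limma adjusted p = 0.0790) and 0.25 at 0.1% phloridzin (adjusted p = 0.0769). At 0.1% phloridzin it passed with the mean of probe sets (adjusted p = 0.00814), array weights (0.0419) and without mouse 1 of that group (0.0492). At 0.5% phloridzin it passed with quantile normalization (adjusted p = 0.0277), the mean of probe sets (0.0123) and array weights (0.0242). Together with Rpl7l1 and Rps29, which were lower, it made up the 3 genes (6.38%) whose 0.5% phloridzin and untreated groups did not overlap, against 11.1% of all genes. At 0.1% phloridzin no ribosomal protein gene had groups without overlap, against 13.2% of all genes.

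Rps3a1, lower in STZ livers, had signals of 4069, 4287, 4422, 5344 and 3960 in 0.1% phloridzin and 4368, 4543, 4971, 3850 and 4394 in 0.5% phloridzin livers. All 0.1% phloridzin livers but mouse 4 lay below the untreated range. The differences from untreated were −0.22 (limma adjusted p = 0.109) and −0.21 (adjusted p = 0.137) at 0.1% and 0.5%, and those from STZ livers 0.12 and 0.13. Without mouse 4 of the 0.1% group, the array that stood apart, the 0.1% comparison with untreated livers gave an adjusted p of 0.0324. With quantile normalization and all mice the limma adjusted p of this comparison was 0.0127. Rps6 differed from untreated by −0.37 (limma adjusted p = 0.107) at 0.1% and −0.40 (adjusted p = 0.0917) at 0.5% phloridzin, and without untreated mouse 4 the second passed (adjusted p = 0.0469). Without 0.1% phloridzin mouse 3, Rpl37 passed at 0.1% (adjusted p = 0.0220, against 0.0855 with all mice). Rplp0 was within 0.06 of untreated at both doses.

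**Figure D4:**
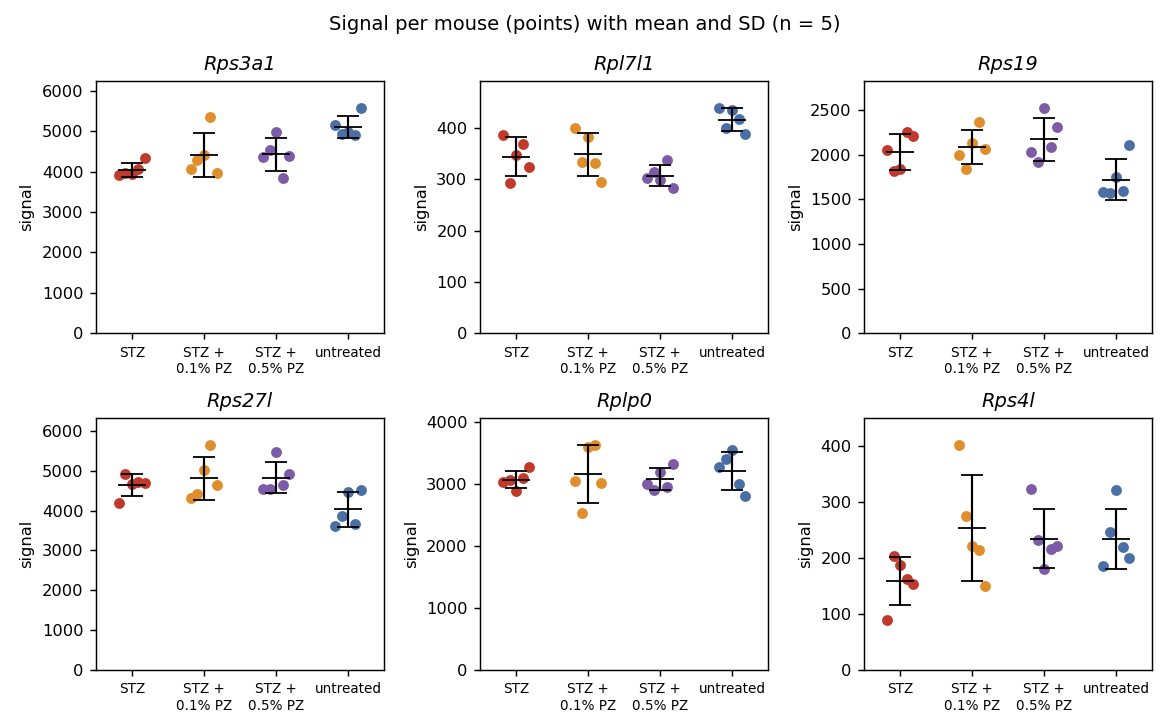
Signal per mouse for 6 genes in STZ, 0.1% phloridzin, 0.5% phloridzin and untreated livers, with the mean and SD (n = 5), on linear axes from 0. For Rps3a1 the STZ points (3920 to 4330) lie below the untreated points (4918 to 5574), and for Rpl7l1 the 0.5% phloridzin points (282 to 338) lie below the untreated points (388 to 439).

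Ribosomal protein genes moved together from mouse to mouse inside a group. After group means were removed, the median correlation over the 630 pairs of the 36 bright genes was 0.66 across the 20 arrays, and 99.0% of pairs were above 0. The same median was 0.09 for the 1095 bright genes of any kind, 0.11 for 40 proteasome subunit genes and 0.10 for 76 mitochondrial ribosomal protein genes. These correlations are descriptions: all points share 20 arrays, and each array's scaling and RNA enter every gene on it. For the 11 dim genes the median was 0.08. Rpl13a and Rps20 followed the mean of the other genes most closely, with correlations of 0.92 and 0.91, and Rps25 (−0.26), Rpl7l1 (−0.23), Rpl12 (−0.13) and Rps4l (−0.11) did not follow it. The median spread within groups was 0.15 log2 units for the 47 genes, from 0.08 (Rpl27) to 0.65 (Rps27), against 0.23 for all genes and 0.17 for the bright genes of any kind.

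The mean log2 level of the 47 genes showed this as a shift of whole arrays. It was 10.72, 10.76, 10.68, 10.78 and 10.81 in STZ livers. It was 10.81, 10.72, 10.92, 11.03 and 10.78 in 0.1% phloridzin, 10.85, 10.73, 10.91, 10.72 and 10.91 in 0.5% phloridzin, and 10.78, 10.80, 10.95, 10.75 and 11.02 in untreated livers. The groups overlapped, with means of 10.75 ± 0.05, 10.85 ± 0.12 and 10.82 ± 0.09 in STZ, 0.1% and 0.5% phloridzin livers and 10.86 ± 0.12 in untreated livers (SD, n = 5 each).

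The largest shifts were in 0.1% phloridzin mouse 4, at 0.18 above its group mean with 41 of 47 genes above it, and untreated mouse 5, at 0.16 with 42 of 47. These are the arrays named above for their bright end and their Gapdh ratio. The actin 3′ to 5′ ratio followed the bright genes in part. The array with the highest mean of bright genes had a ratio of 2.34 in STZ livers (range 1.76 to 2.36), 2.13 at 0.1% phloridzin (1.68 to 2.13), 2.52 at 0.5% (1.81 to 2.52) and 2.48 in untreated livers (1.62 to 2.48). In STZ mouse 2 the ratio was the highest of its group, 2.36, while the mean log2 level of the bright genes, 11.86, was below the group mean of 11.92. In 0.1% phloridzin mouse 3 that level was 12.08, above the group mean of 12.03, with a ratio of 1.86. The part of scaling and RNA integrity in the shared movement was not tested.

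**Figure D5:**
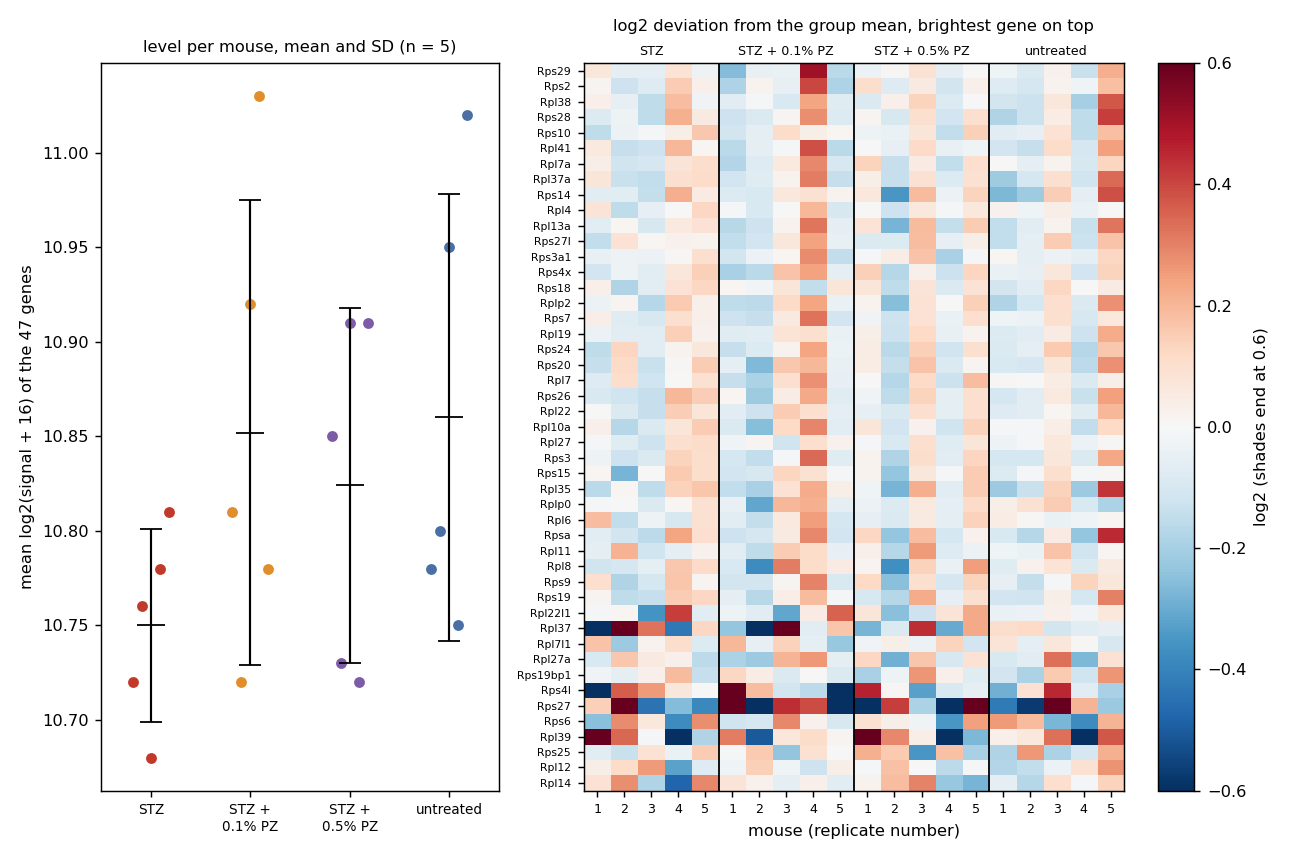
Left, mean log2(signal + 16) of the 47 genes per mouse with the group mean and SD (n = 5). Right, each gene's log2 deviation from its group mean on each array, brightest gene on top, where whole columns share a colour for the bright genes, most clearly 0.1% phloridzin mouse 4 and untreated mouse 5.

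Because the genes moved together, their promoters were searched for shared letters. RefSeq windows of 250 bases before to 50 after the start (GRCm38.p6) were matched for 44 of the 50 genes. The motif CCGGAAG, read on both strands and bound by ETS factors such as GABP, occurred in 21 of 44 windows (47.7%), against 9.12% of 27025 windows of all genes. The pyrimidine run CTTTCC, read on the gene's strand only, occurred in 14 of 44 (31.8%), against 14.0%. These matches are descriptions of letters and not of binding. The 100 bases before the start are printed for the 3 genes called in any comparison, with CCGGAAG in capitals where present, on the minus strand for Rps3a1 (chr3:86142669-86142768) and Rpl7l1 (chr17:46782657-46782756) and the plus strand for Rps19 (chr7:24884492-24884591).
Rps3a1: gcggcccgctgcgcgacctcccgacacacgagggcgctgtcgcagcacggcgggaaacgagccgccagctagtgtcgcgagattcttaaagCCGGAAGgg
Rpl7l1: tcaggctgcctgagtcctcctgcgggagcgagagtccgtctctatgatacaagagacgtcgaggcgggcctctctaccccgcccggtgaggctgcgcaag
Rps19: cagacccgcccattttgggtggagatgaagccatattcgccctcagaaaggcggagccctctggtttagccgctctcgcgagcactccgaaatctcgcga
Rps3a1 holds the motif directly before its start, and the windows of Rpl7l1 and Rps19 hold no CCGGAAG on either strand.

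Of the genes that meet the symbol rule, 31 were seen only in probe sets shared by several genes. The shared probe sets also list genes with an own probe set, and none can be assigned to 1 gene. Of 104 such probe sets kept, 0 were called higher and 3 lower in STZ against untreated livers by limma, where 13.8% of all genes were called, with a median log2 difference of −0.14 and 18 of 104 above 0. None was called in either phloridzin group against STZ, or between doses. Against untreated livers, 2 were lower at 0.1% and 2 at 0.5% phloridzin, and 0 were higher, beside 16.7% and 12.7% of all genes called. Fau, the one ribosomal protein gene outside the symbol rule that had an own probe set, encodes a small subunit protein fused to a ubiquitin-like protein. It had 3628, 4122, 4406, 4912 and 4260 in 0.1% phloridzin livers, against 3062, 2993, 3085, 3129 and 3501 in untreated livers. The groups did not overlap, and Fau rose by 0.43 ± 0.10 (limma adjusted p = 0.00613), with 0.27 in STZ livers (0.0729) and 0.28 at 0.5% phloridzin (0.0729), neither called.

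Genes that build or run the ribosome were also compared, as lists set beside the share of all genes called. Of 46 genes of rRNA synthesis and ribosome assembly, 6 rose and 0 fell in STZ against untreated livers (13.0%), with a median of 0.06. Of all genes, 13.8% were called either way and 6.90% were called higher. Ncl, the nucleolar protein nucleolin, had signals of 847, 1077, 1063, 908 and 1218 in STZ livers, against 647, 638, 629, 636 and 594 in untreated livers. The groups did not overlap, and Ncl rose by 0.68 ± 0.16 (limma adjusted p = 0.00684), by 0.67 at 0.1% and by 0.72 at 0.5% phloridzin against untreated. Eif6, which keeps the new large subunit from joining too early, rose by 0.29 (limma adjusted p = 0.0195), and the processing factors Rrp9 and Utp4 rose by 0.83 (0.0331) and 0.33 (0.0391). With the mean of its probe sets Ncl gave 0.37 in STZ livers and did not pass (adjusted p = 0.0601), and it did not pass at either dose of phloridzin. The calls of Eif6, Rrp9 and Utp4 in STZ livers were lost in 4, 7 and 11 of 30 alternatives. For Rrp9 and Utp4 most of these left out 1 mouse. For Eif6 they included the mean of probe sets and the brightest plain _at probe set, so its call depended on the probe set. Its limma adjusted p reached 0.749 over the alternatives. Against untreated, 4 assembly genes rose and 1 fell at 0.1% phloridzin (10.9%, beside 16.7% of all genes), and 4 rose and 0 fell at 0.5% (8.70%, beside 12.7%). Of all genes, 6.53% were called higher at 0.5%. Npm1 and Ubtf were not called in STZ livers, at −0.12 and −0.06.

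Of 31 translation factor genes, 0 rose and 2 fell in STZ livers (6.45%, beside 13.8% of all genes called either way and 6.89% called lower). Eif4a2, an RNA helicase of initiation, had 1930, 1638, 1768, 1893 and 2014 in STZ livers, against 2501, 2463, 2390, 2568 and 2347 in untreated livers, without overlap. It fell by 0.41 (limma adjusted p = 0.00605), and Eef1b2, an exchange factor of elongation whose mRNA carries a pyrimidine tract in human cells, fell by 0.30 (adjusted p = 0.0421). The call of Eif4a2 held in all 30 alternatives, and that of Eef1b2 was lost in 11 of 29, 8 of them leaving out 1 mouse. Eef1a1 at −0.15 and Eef2 at 0.05 were not called. At 0.1% phloridzin 0 of these genes rose and 3 fell against untreated (9.68%, beside 16.7% of all genes), and at 0.5% 1 rose and 1 fell (6.45%, beside 12.7%). Of all genes, 8.98% were called lower at 0.1%.

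Of 27 genes of mTORC1, Larp1 and translation control, 3 rose and 2 fell in STZ livers, 18.5% beside the 13.8% of all genes. Sesn2, a stress-induced inhibitor of mTORC1, had 104, 131, 147, 115 and 130.3 in STZ livers, against 43.7, 38.5, 49.5, 53.7 and 55.5 in untreated livers. It rose 2.20-fold (log2 1.14 ± 0.12, limma adjusted p = 2.47e-06), with no overlap, and by 0.96 and 0.97 in 0.1% and 0.5% phloridzin livers against untreated. Mdm2 rose by 0.53 (adjusted p = 0.0364) and Eif2ak1, a kinase that lowers initiation, by 0.29 (0.0236), while Mycn fell by 1.28 on the log2 scale (0.00999) in limma. Mycn was read on a dim probe set, with signals of 4.83 to 25.6 in STZ and 43.9 to 89.1 in untreated livers. The highest array median was 17.1. The calls of Sesn2 and Mycn held in all 30 alternatives, whereas that of Mdm2 was lost in 7 of 29 and that of Eif2ak1 in 5 of 30. Rheb was the other gene called lower in STZ livers. Larp1 at −0.03, Mtor at 0.19 and Myc at −0.31 were not called. Against untreated, 4 of these genes rose and 2 fell at 0.1% phloridzin (22.2%, beside 16.7% of all genes), and 6 rose and 1 fell at 0.5% (25.9%, beside 12.7%). Those called at 0.1% phloridzin included Rheb at −0.41 (limma adjusted p = 0.0112) and Tsc2 at 0.38 (0.00750). Both of these calls held in all alternatives. None of the genes of these 3 lists was called in phloridzin against STZ livers or between doses.

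The ribosomal proteins of mitochondria and the proteasome, both large complexes with subunits made in matched amounts, had medians above 0 in STZ livers. Of 76 mitochondrial ribosomal protein genes, 5 were higher and 2 lower (9.21%, beside 13.8% of all genes), with a median of 0.10 and 57 above 0. Of 40 proteasome subunit genes, 3 were higher and 2 lower (12.5%), with a median of 0.08 and 29 above 0. The cytosolic ribosomal protein genes had a median of −0.09 in the same comparison, and the difference between these lists was not tested.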

How the data were processed

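The deposited file held, per the labels, 1 Affymetrix array per mouse. The authors deposited intensity values, a linear signal per probe set. Tested on the file, each array's mean without its lowest and highest 2% was 100, and no source used here names the software. The 45101 probe sets included 64 controls, 9160 without a listed gene and 932 with several genes, which the comparisons leave out. Gene names came from the platform annotation, with 34741 of 34945 Entrez identifiers found in the RefSeq table.

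Values were log2(signal + 16). The brightest probe set per gene was used, and genes at or above the 40th percentile of mean log2 level (a signal of about 8.48) were kept. Limma 3.58.1 (R 4.3.3) fitted 4 group means over 20 arrays (16 residual and 4.56 prior degrees of freedom), two-sided, and p were adjusted by Benjamini and Hochberg over all 12947 genes, with an adjusted p under 0.05 as a call. In data simulated for STZ against untreated over 12947 genes with 200 changed, the fit called 49.4% of the 1.5-fold and 88.8% of the 2-fold changes, with 5.95% false among its calls. The simulation shuffled each gene's deviations on its own, which removes movement shared by genes on an array. The real comparison called 1785 genes, far more than were changed there, so these rates need not hold for it.

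Replicate numbers were those of different mice. Same-numbered arrays of different groups correlated by −0.41 to 0.50 in their deviations from the group means, over 0.1 in 13 of 30 pairs. The median was 0.08, against −0.01 for arrays with unlike numbers. The numbers were not used as pairs in the main fit, and whether same-numbered mice were handled together was not tested. The number of arrays limits the precision, and p measure the spread between mice. Named genes were the called members, or the 3 with the smallest p where none was called, a panel of 15 symbols, of which 10 were among the genes compared, and the called pathway genes with the smallest p. The members, lists and rules were chosen with earlier results of these data known. The fit was repeated with other scalings (quantile, median), without the filter, with a pseudocount of 1, other probe set choices, only the groups compared, array weights or a replicate block, and leaving out each mouse. Figures were drawn with matplotlib 3.10.9.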

Additional observations from a re-analysis of the deposited data

Results flagged for a closer look

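The level of Rpl41 in 0.1% phloridzin mouse 4 lay far from the other mice of its group. On the log2(signal + 16) scale it was 13.04, against 12.49 to 12.65 in the other 4, and as a signal 8395 against 5725 to 6390. It was the 1 value that stood out by Dixon's test among 80 groups of 5 mice tested, where chance marks about 1 in 20. Only the genes named by rule and the member means were tested. Rps29 was not among them, and its signal in the same mouse was 15949, against 9368 to 10902 in the other 4. Rpl41 is therefore not shown to be the only gene that stood out in this mouse. The array of this mouse is also the one with the highest bioD signal, 14067. The part of that array's bright end in the Rpl41 value was not tested.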

How the results depend on the processing

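The number of ribosomal protein genes called in STZ against untreated livers, 1 in the results above, was 3 with quantile normalization and with the mean of probe sets, 2 with array weights and with the replicate block, and 0 with the brightest plain _at probe set (23 genes). Leaving out single mice gave 1 to 2. For 0.1% phloridzin against untreated, 0 above, it was 2 with quantile normalization and the mean of probe sets, 3 with array weights and 0 to 2 with single mice left out. For 0.5% phloridzin against untreated, 2 above, it was 1 without the filter, with plain _at probe sets and with only the groups compared, 3 with quantile normalization, the mean of probe sets and array weights, and 1 to 2 with single mice left out. Probe sets that list several genes were added as features of their own, an alternative chosen after seeing the data. The called features, genes and shared probe sets together, then numbered 4 for STZ, 2 for 0.1% and 4 for 0.5% phloridzin against untreated, of which 1, 0 and 2 were the genes called above. In both phloridzin comparisons with STZ and between doses it was 0 throughout. The median at 0.1% phloridzin against STZ moved to −0.01 with quantile normalization.

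With single mice left out, the medians ran from −0.12 to −0.05 for STZ against untreated, 0.04 to 0.13 and 0.01 to 0.10 for 0.1% and 0.5% phloridzin against STZ, −0.07 to 0.00495 between doses, and −0.04 to 0.07 and −0.07 to 0.00254 for 0.1% and 0.5% phloridzin against untreated. Rps3a1 stayed called in STZ livers in 29 of 29 alternatives that measured it (adjusted p 0.00792 to 0.0474). The replicate block added Rpl7l1 in STZ livers (adjusted p = 0.0448). Of 20 arrays, 8 correlated best with their own number. Eif6 turned to −0.01 (adjusted p = 0.993) at 0.1% phloridzin against untreated with plain _at probe sets. The causes were not tested.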
